A study of Mus musculus with 6 samples.

Results

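The microRNAs miR-598, miR-677 and miR-711 were examined in mouse embryonic stem cells (mESCs) and in the embryoid bodies (EBs) made from them. All array entries of these miRNAs were taken, whichever arm of the hairpin they stand for. This gave 5 of the 1247 mouse miRNAs on the array: mmu-miR-598-5p, mmu-miR-598-3p, mmu-miR-677-5p, mmu-miR-677-3p and mmu-miR-711, called here without the species prefix. Of these, 3 had been picked for their values: miR-598-5p and miR-677-5p for large rises in EBs, and miR-711 for a large rise with hypoxia. Every comparison of these 3 uses arrays that served in the choice, so their differences are given below as a description, without a test. The scanner called 4 entries detected on all 6 arrays, and miR-598-3p was undetected on all 6.

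The study measured miRNAs in 3 groups with 2 single-colour (Cy3) arrays each. The mESCs were of a C57 line, kept undifferentiated in medium with serum and leukaemia inhibitory factor (LIF) on mouse embryonic fibroblast feeders that mitomycin C had stopped from dividing, and were held for 16 h under normoxia. EBs, the aggregates in which such cells begin to differentiate, were formed in hanging drops with neither LIF nor feeders, and were held for 16 h under normoxia or for 16 h under hypoxia. The labels give no oxygen level and do not say whether the 2 arrays of a group came from separate cultures, so p-values cover the spread of these arrays alone, and that spread may be technical. Feeders, LIF and aggregation differ together between mESCs and EBs, and these cannot be told apart.

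A miRNA hairpin is cut out of a longer transcript and then opened into a short duplex. Either strand, called 5p or 3p after its arm of the hairpin, can be loaded into an Argonaute protein, and the loaded strand finds messenger RNAs mainly through its seed, bases 2 to 8. The other strand is usually degraded, so the arms of a hairpin can reach very different levels. Many miRNA hairpins lie within genes, and in RefSeq's gene table for the mouse all 3 of these do. Mir598 lies within Xkr6, a gene of the XK-related family, on chromosome 14. Mir677 lies within Atp5b, which encodes the beta subunit of the mitochondrial ATP synthase, on chromosome 10, where the same gene also holds the small nucleolar RNA gene Snord59a. Mir711 lies within Col7a1, which encodes the collagen of the anchoring fibrils of skin, on chromosome 9. No other miRNA gene lies within 10 kb of any of them. Of the 3, miR-711 is the best known for a role, having been reported to promote the death of injured neurons in mice.

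The mature sequences of the arms that were measured are shown because the arms of Mir677 differed in behaviour and because miR-711 is rich in G. They are RefSeq's, 5′ to 3′ on build GRCm38.p6, with the seed in capitals, and RefSeq's tables held 3 of the 5 entries.
miR-677-5p: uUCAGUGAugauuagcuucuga
miR-677-3p: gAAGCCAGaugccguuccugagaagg
miR-711: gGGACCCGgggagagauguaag

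These lie at chr10:128085291-128085312, chr10:128085335-128085360 and chr9:108969970-108969991, all on the plus strand. The 3 seeds differ from each other, and no other mature mouse miRNA of the RefSeq table has the same bases 2 to 8 as any of them. The 22 bases of miR-711 include 11 G, and 63.6% of them are G or C. Among the 357 tested miRNAs with a sequence, the median was 6 G and 54.5% G or C. Besides miR-711, 89 of them had at least its share of G or C, and 35 had at least as many G. The 26 bases of miR-677-3p are 57.7% G or C, against 36.4% of the 22 bases of miR-677-5p. The hairpins are shown with the annotated arms in capitals, to place the arms of Mir677 on its transcript and to show that Mir711 has 1 annotated arm, on the 3′ side. They lie at chr10:128085286-128085363 and chr9:108969922-108970003.
Mir677: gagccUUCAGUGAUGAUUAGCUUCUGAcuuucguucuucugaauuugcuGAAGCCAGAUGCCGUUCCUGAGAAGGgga
Mir711: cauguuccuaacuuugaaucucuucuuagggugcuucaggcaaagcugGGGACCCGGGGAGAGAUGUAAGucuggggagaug

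Across the arrays, 408 to 495 miRNAs were detected, and the replicate arrays of a group correlated at 0.997 to 0.998 across miRNAs. The 75th percentile over the 391 miRNAs that every array detected ranged from 137 to 237 units and was lowest on the mESC arrays. Values below are therefore scaled to that percentile, in array units, unless called unscaled. After scaling, the median difference of the 484 tested miRNAs was 0.05 (log2) between normoxic EBs and mESCs and 0.10 between hypoxic and normoxic EBs. Without scaling these medians were 0.74 and -0.10. They were 0.15 and 0.34 when the arrays were scaled to the array's 5 hur control features. The split of called miRNAs moved with the scaling, from 126 higher and 122 lower in normoxic EBs than in mESCs to 326 and 11 without scaling, and from 159 higher and 122 lower in hypoxic than in normoxic EBs to 24 and 115 without scaling and 231 and 15 with the hur features. Names of the array files place the mESC arrays in another row of the slide than the EB arrays, so the row cannot be told apart from the cell state. Of the 11 miRNAs listed as markers of embryonic stem cells, 9 were found by name. Their summed signal ran from 30752 to 32242 in mESCs, from 23804 to 26506 in EBs under normoxia and from 20447 to 20457 under hypoxia. The array's miR-290-3p and miR-292-3p, older names of the listed miR-290a-3p and miR-292a-3p, were left out of these sums. In them normoxic EBs differed from mESCs by -0.52 and -0.20 (log2), and hypoxic from normoxic EBs by -0.22 and -0.26. The 8 listed miRNAs of feeder fibroblasts summed to 494 to 523, 274 to 298 and 217 to 235 in the same order, mostly miR-21a-5p, whose mean was 404 units in mESCs, 190.2 in EBs under normoxia and 150.1 under hypoxia. Of the 4 tested, 1 was called higher and 2 lower in normoxic EBs than in mESCs. The member called higher was miR-199a-3p, undetected in mESCs and with means of 6.70 and 4.52 units in EBs under normoxia and hypoxia, miR-214-3p and miR-145a-5p were each detected on 1 hypoxic EB array, and miR-143-3p and miR-199a-5p on no array. The part of feeder RNA in the differences from mESCs was not tested.

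The 5p arm of miR-598 was lowest in mESCs, higher in normoxic EBs and highest in hypoxic EBs. In mESCs its signal was 7.05 and 8.39 units, only 2.43 and 2.94 times the lowest detected signal of the array. Normoxic EBs gave 18.3 and 17.6 units, and EBs under hypoxia gave 26.6 and 28.0. The means were 7.72 ± 0.942, 17.9 ± 0.472 and 27.3 ± 1.01 units (SD, n = 2 each). No array of a group reached the range of another group, and the gap between replicate arrays was within the scanner's own error in each group. Arrays of normoxic EBs and mESCs did not overlap for 79.3% of all tested miRNAs, and those of hypoxic EBs and mESCs for 88.0%. The unscaled signals kept the same order of groups, at 5.14 and 6.24, then 21.6 and 22.2, then 30.9 and 25.99 units.

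Normoxic EBs exceeded mESCs 2.33-fold and hypoxic EBs exceeded them 3.55-fold in miR-598-5p, which are the values it was picked for and carry no test. Both rest on low mESC signals, and under 21 other settings these log2 differences were 0.63 to 1.95 and 1.23 to 2.32. Among the 394 miRNAs detected on all 4 arrays of normoxic EBs and mESCs, the 2.33-fold rise was the 5th largest. It stood between miR-431-3p at 2.44-fold and miR-124-3p at 2.17-fold. Among all 484 tested miRNAs, which need not be detected in both groups, it was the 22nd largest. As fewer cells of a type and less RNA per cell cannot be told apart in such bulk samples, none of these differences says which cells carried the miRNA. From normoxic to hypoxic EBs miR-598-5p was 1.52-fold higher (0.61 on the log2 scale), a comparison of arrays that all served in the choice. For 84.7% of the tested miRNAs the arrays of these groups did not overlap, and 32.9% were called higher by limma with Benjamini-Hochberg adjustment over 484 miRNAs, so a separation of these groups does not set it apart. The log2 difference was 0.27 to 0.84 under 21 other settings, and positive in all of them.

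The 3p arm of miR-598 was listed at the value for undetected miRNAs, 0.1 units, on all 6 arrays. In this it resembled many hairpins, since of 422 with both arms on the array, 55 had the 5p arm on all 6 arrays and the 3p arm on none, and 80 had the opposite.

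**Figure D1:**
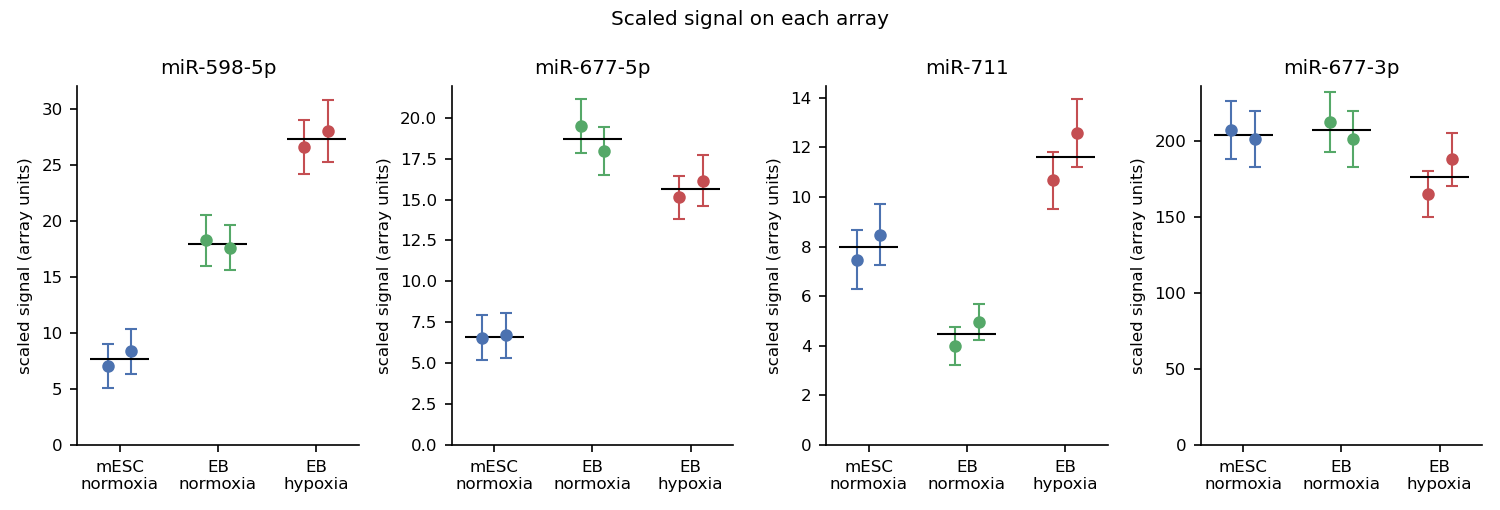
Scaled signal in array units on the vertical axis, from 0, for each detected entry in mESCs, normoxic EBs and hypoxic EBs. Points are single arrays, 2 in each group, with the scanner's own error as bars, and black lines are group means. The vertical scale differs between panels. The arrays of miR-677-3p in mESCs and normoxic EBs overlap, while those of miR-598-5p, miR-677-5p and miR-711 fall into separate ranges in the 3 groups. Between any pair of groups, the arrays were separate for 79.3% to 88.0% of all tested miRNAs.

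The 5p arm of miR-677 was higher in both kinds of EB than in mESCs. In mESCs its signal was 6.55 and 6.70 units, only 2.26 and 2.35 times the lowest detected signal of the array. Normoxic EBs gave 19.5 and 17.97 units, and EBs under hypoxia gave 15.1 and 16.1. The means were 6.63 ± 0.108 in mESCs, 15.6 ± 0.719 in EBs under hypoxia and 18.7 ± 1.08 under normoxia (SD, n = 2 each), in that order, with no overlap between any pair of groups. Among all tested miRNAs the arrays likewise did not overlap for 79.3% between normoxic EBs and mESCs. The share was 84.7% between hypoxic and normoxic EBs and 88.0% between hypoxic EBs and mESCs. Unscaled, it read 4.77 and 4.99, then 23.01 and 22.6, then 17.6 and 14.97 units in mESCs, normoxic EBs and hypoxic EBs.

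In miR-677-5p, normoxic EBs stood 2.82-fold above mESCs, the value it was picked for and the largest rise among the same 394 miRNAs, ahead of miR-125b-5p at 2.75-fold. Among all 484 tested miRNAs this rise was the 9th largest. Hypoxic EBs stood 2.36-fold above mESCs, a comparison that also shares the mESC arrays of the choice. Both rises rest on low mESC signals, and under 21 other settings their log2 differences were 0.69 to 2.23 and 0.43 to 1.73. Hypoxic EBs were 1.197-fold below normoxic EBs (-0.26 on the log2 scale), and a choice for high normoxic values favours such a step down. Of the tested miRNAs, 25.2% were called lower in this comparison. The difference was -0.49 to -0.024 under 21 other settings, the smallest of them with scaling to the hur features, and -0.083 when miRNAs were centred by the length of their listed probe match.

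The 3p arm from the same hairpin, which had not been picked for its values, moved little after scaling. For miR-677-3p the mESC arrays read 207 and 201 units. Normoxic EBs gave 213 and 201 units, and EBs under hypoxia gave 165 and 188. The mESC and normoxic EB arrays overlapped, whereas the arrays of these groups did not overlap for 79.3% of the tested miRNAs. As the only detected entry not picked for its values it was tested. Normoxic EBs differed from mESCs by 0.02 (log2, 95% interval -0.20 to 0.24, adjusted p = 0.888 by limma). The 5p arm stood at 1.498, but it was picked for that rise, so the gap between the arms is a description. Hypoxic EBs differed by -0.23 from normoxic EBs (adjusted p = 0.0646) and by -0.21 from mESCs (adjusted p = 0.0670), neither passing the threshold of 0.05, with arrays that did not overlap. Arrays did not overlap for 84.7% of all tested miRNAs between hypoxic and normoxic EBs, and for 88.0% between hypoxic EBs and mESCs. These differences rest on the scaling: without it, and in the authors' deposited ratio, miR-677-3p was 0.75 higher in normoxic EBs than in mESCs, past the threshold, and the last difference turned to 0.28. Under 21 other settings the first difference was called in 2, the second in 10 and the third in 8.

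The arms were also compared within each array, where no scaling factor for the array can matter. The 5p signal minus the 3p signal of miR-677 was -4.98 and -4.91 (log2) in mESCs. It was -3.45 and -3.49 in EBs under normoxia and -3.45 and -3.54 in EBs under hypoxia. All 4 EB arrays lay above both mESC arrays, while normoxic and hypoxic EB arrays overlapped. The 5p arm thus gained 2.79 times on the 3p arm between mESCs and normoxic EBs (1.48 on the log2 scale) and the change between normoxic and hypoxic EBs was -0.03. An exact permutation test of 2 arrays against 2 cannot give a two-sided p under 0.333, so the arm change has no test by itself. Among the 55 hairpins with both arms detected on all 6 arrays, the arm change of miR-677 between mESCs and normoxic EBs ranked 2nd from the top, below miR-1943 at 1.79 and next to miR-669e at 1.46, and the median was 0.10. As the 5p arm was picked for its rise, this rank is a description. The probes listed for the arms differ, with a match of 19 bases for miR-677-5p (bases 4 to 22) and 14 bases for miR-677-3p (bases 13 to 26). The level of an arm is therefore not comparable with that of the other. Changes also went with match length, with medians between mESCs and normoxic EBs of 0.21 for at most 15 bases and -0.16 for 16 or more. The part of probe length in the arm change was not tested.

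**Figure D2:**
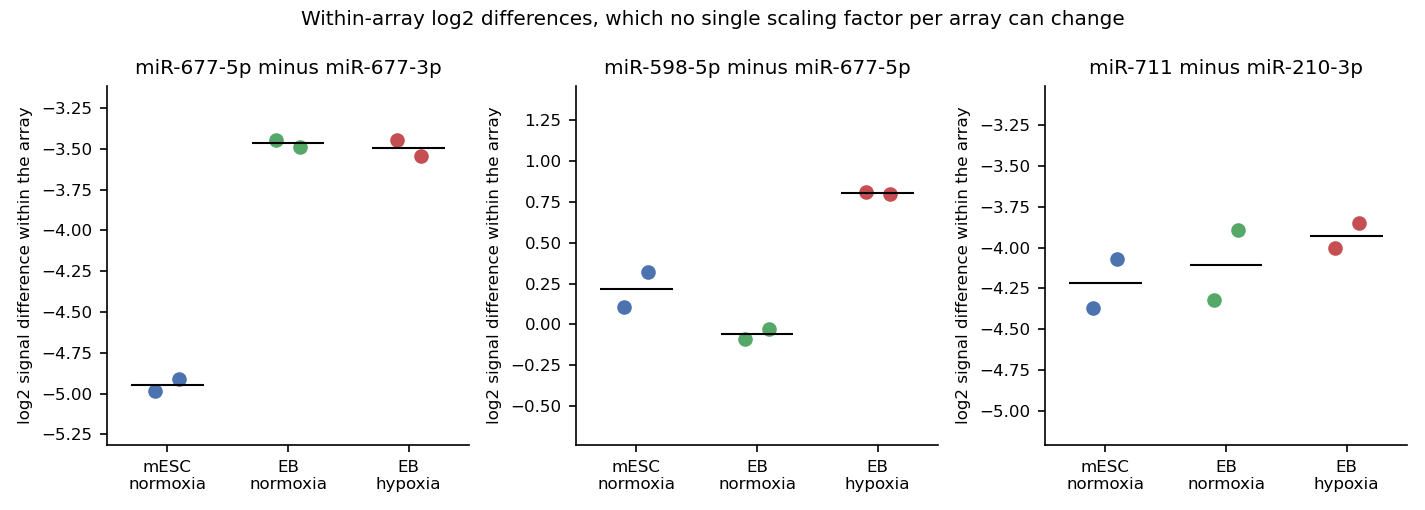
Differences of log2 signal between a pair of miRNAs on the same array, on the vertical axis, by group, with 1 point for each of the 6 arrays and a line at each group's mean. Each panel is a pair, and no factor that scales a whole array can move a point. The arm difference of miR-677 runs from -4.98 to -4.91 in mESCs and from -3.54 to -3.45 in both kinds of EB.

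The miRNA miR-711 followed another course, lowest in normoxic EBs and highest in hypoxic EBs. In mESCs its signal was 7.48 and 8.48 units. Normoxic EBs gave 3.97 and 4.96 units, and EBs under hypoxia gave 10.7 and 12.6. The ranges of the 3 groups did not overlap, with means of 4.47 ± 0.697 in EBs under normoxia, 7.98 ± 0.712 in mESCs and 11.6 ± 1.34 in EBs under hypoxia (SD, n = 2 each). Separate arrays were common among all tested miRNAs, at 79.3% for normoxic EBs against mESCs and 84.7% for hypoxic against normoxic EBs. For hypoxic EBs against mESCs the share was 88.0%. All these signals were low, at 1.85 to 6.11 times the lowest detected signal of their array, and the scanner's error for a single scaled value was 0.742 to 1.37 units. The gap between the hypoxic arrays, 1.90 units, slightly exceeded the scanner's error of that gap, 1.78 units. Unscaled, mESCs at 5.44 and 6.31 and normoxic EBs at 4.69 and 6.24 overlapped, while hypoxic EBs read 12.4 and 11.7.

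Hypoxic EBs stood 2.61-fold above normoxic EBs in miR-711, the value it was picked for and the largest rise among the 432 miRNAs detected on all 4 of these arrays. The next were miR-6401 at 2.36-fold and miR-210-3p, a miRNA well known for its induction under hypoxia, at 2.31-fold. Among all 484 tested miRNAs the rise of miR-711 was the 4th largest. The log2 difference of 1.38 was 1.05 to 1.62 under 20 of 21 other settings, and 0.056 with a floor 4 times as high, at which 5 of its 6 signals lay under the floor. Against mESCs, hypoxic EBs were 1.45-fold higher (0.54 on the log2 scale), a value with no test that ran from -0.05 to 1.04 over 21 other settings, so that a large rise was seen against normoxic EBs but not against mESCs. Normoxic EBs were 1.79-fold below mESCs in miR-711 (-0.84 on the log2 scale), and a choice for a rise from normoxic EBs favours low values there. Of the tested miRNAs, 25.2% were called lower and 26.0% higher in that comparison. The difference was -1.18 to 0 under 21 other settings, with -0.11 without scaling and 0 with the higher floor.

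**Figure D3:**
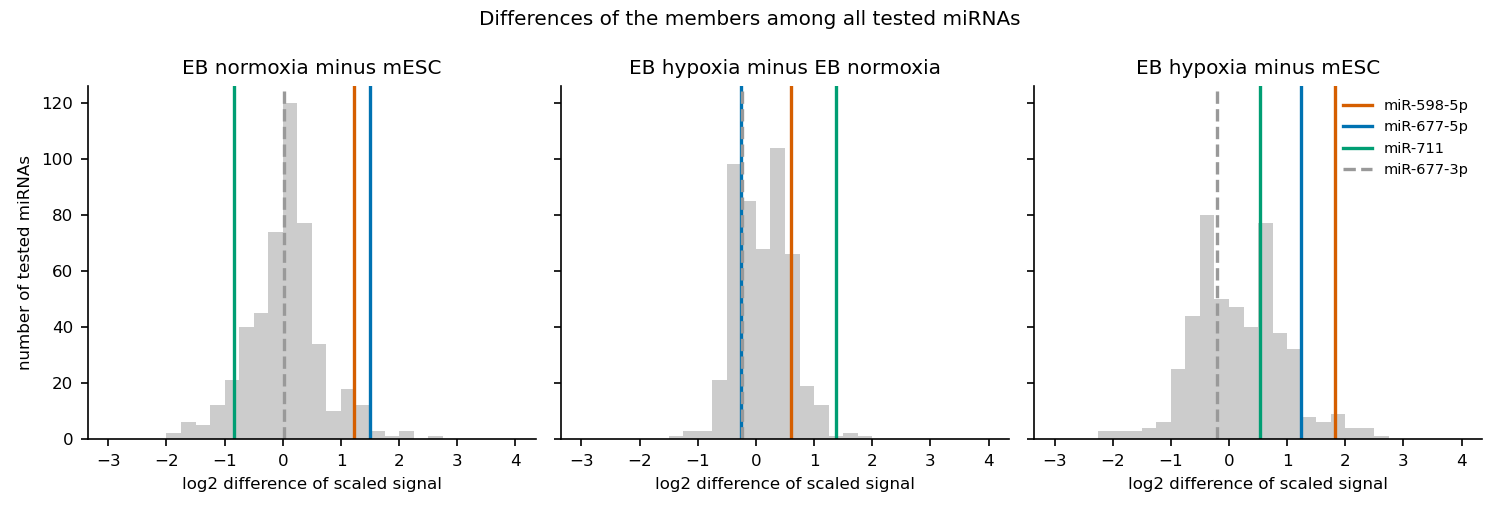
Histograms of the log2 difference of scaled signal over the 484 tested miRNAs, in bins along the horizontal axis, with 1 panel for each comparison and the number of miRNAs on the vertical axis. Vertical lines mark miR-598-5p, miR-677-5p, miR-711 and, dashed, miR-677-3p. The line of miR-677-3p lies at 0.02 in the comparison of normoxic EBs with mESCs, where miR-677-5p lies at 1.498 and miR-598-5p at 1.22.

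The miRNAs reported to respond to hypoxia did not move with miR-711 as a group. Of 23 such names, chosen from general knowledge, 21 were on the array and 17 were tested. The list gives no direction of response, so its members need not rise together. Between normoxic and hypoxic EBs 2 were called higher and 10 lower, while 32.9% of all tested miRNAs were called higher and 25.2% lower. Their median difference was -0.23, against 0.10 over all 484 miRNAs. With scaling to the hur features the median was 0.00, with 2 called higher and 0 lower by limma, so the direction of this group depends on the scaling. Under that scaling, calls higher also far outnumbered calls lower over all tested miRNAs, as given above. Between mESCs and normoxic EBs 2 were called higher and 8 lower, with a median of -0.15, which became 0.58 without scaling. Of all tested miRNAs, 26.0% were called higher and 25.2% lower in normoxic EBs than in mESCs with the main scaling. In miR-210-3p the mean signal of mESCs was 148 units, that of EBs 76.5 under normoxia and 176 under hypoxia, the same order of groups as in miR-711. The within-array difference of miR-711 from miR-210-3p was -4.37 and -4.07 in mESCs. It was -4.32 and -3.89 in EBs under normoxia and -4.004 and -3.85 in EBs under hypoxia, with the range of normoxic EBs overlapping both others and the hypoxic EB arrays above the mESC arrays.

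Differences across the array went together with the length of the probe match, a relation looked at after the values had been seen. The authors' deposited table lists for each entry where its probe matches, and for 477 of the 484 tested miRNAs (98.6%) that gave a length, from 9 to 23 bases with a median of 15. The match was 14 bases for miR-598-5p and 15 for miR-711 (bases 8 to 22, at the 3′ end and outside most of the seed). Between normoxic and hypoxic EBs, 119 of the 248 miRNAs with at most 15 matched bases were called higher and 19 lower, with a median difference of 0.36. Of the 229 with 16 bases or more, 36 were called higher and 103 lower, with a median of -0.22. The correlation of length with difference across these miRNAs, which share arrays and are not replicates, was -0.46 for hypoxic against normoxic EBs, -0.27 for normoxic EBs against mESCs and -0.49 for hypoxic EBs against mESCs. In the last comparison the medians were 0.55 for at most 15 bases and -0.38 for 16 or more. Both miR-598-5p and miR-711, which were higher with hypoxia, are thus in the class with more calls higher than lower, and miR-677-5p, with 19 bases, is in the class with more calls lower. With each class centred on its own median, the difference of miR-598-5p with hypoxia was 0.27 and that of miR-711 was 1.05. The part of probe length in these differences was not tested. For G plus C content only 357 of the 484 tested miRNAs (73.8%) had a sequence, under the 80% needed, so the values describe those alone. Across them the correlation with the difference of hypoxic from normoxic EBs was 0.44. Of 89 others with a content at least that of miR-711, 51 were called higher and 2 lower, against 115 and 93 of all 357. The part of this content in the differences was not tested.

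**Figure D4:**
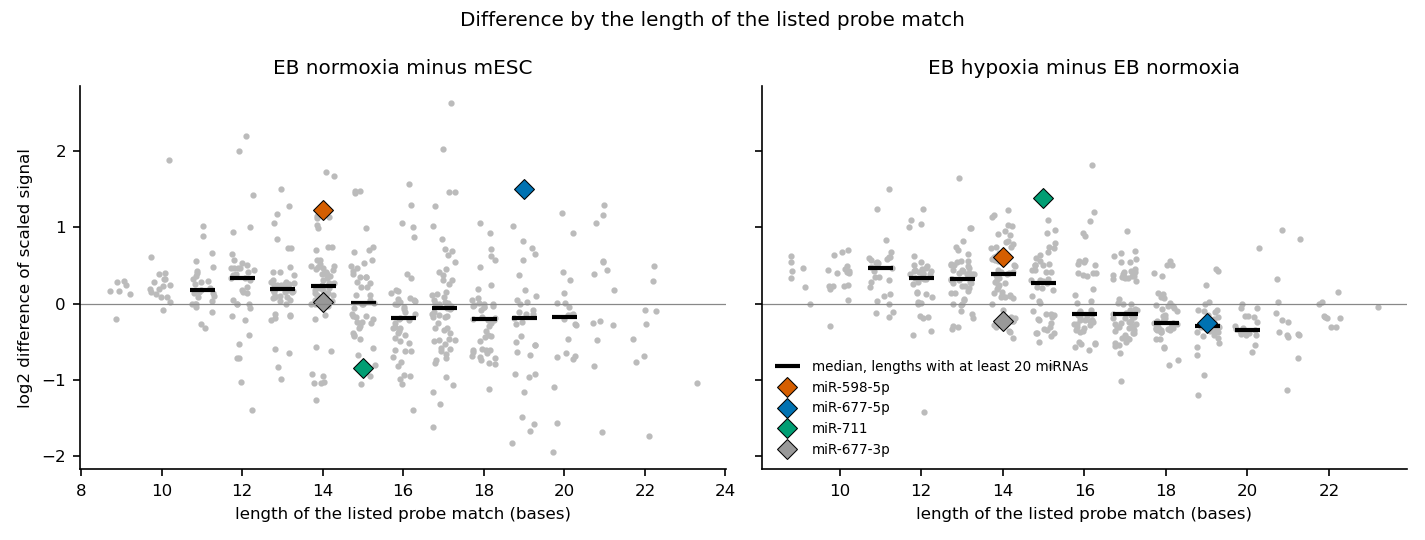
The log2 difference of scaled signal, on the vertical axis, against the length in bases of the listed probe match, on the horizontal axis, for 477 tested miRNAs. Panels are comparisons, grey points are miRNAs, spread sideways for reading, black bars are medians at lengths with at least 20 miRNAs, and diamonds are the members. The medians go down with length more in the comparison of hypoxic with normoxic EBs than in that of normoxic EBs with mESCs, and in the former miR-711 at 15 bases lies far above its length's median.

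The miRNAs whose pattern over the 6 arrays was nearest were found by the root mean square difference of log2 values centred on their mean, among the other 390 miRNAs detected on all arrays. For miR-677-5p the nearest were miR-125b-5p at 0.0591 and miR-150-5p at 0.0607, against a median of 0.698 over the 390, followed by miR-124-3p at 0.211 and miR-142-3p at 0.253. The first of these is known from many differentiating tissues, miR-150-5p and miR-142-3p from blood cells, and miR-124-3p from neurons. The within-array difference of miR-677-5p from miR-125b-5p stayed between -2.00 and -1.83 on all 6 arrays, and that from miR-150-5p between -0.56 and -0.38. These steady differences restate the likeness by which both were chosen on the same arrays.

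For miR-598-5p the nearest was miR-708-5p at 0.150, then miR-681 at 0.191, miR-208a-5p at 0.256 and miR-328-3p at 0.301, with a median of 0.814 over the 390. In miR-708-5p the mean signal of mESCs was 3.47 units, that of EBs 6.67 under normoxia and 10.3 under hypoxia, the lowest of these close to the floor of 2.91 units. For miR-711 the nearest were miR-291b-5p at 0.183, miR-210-3p at 0.197, miR-6401 at 0.198 and miR-365-2-5p at 0.213, with a median of 0.625. These likenesses are descriptions over arrays that share their groups, and with 3 groups many miRNAs can have a like pattern. The nearest of each member shared no seed with it where RefSeq's table held both, as these sequences show.
miR-125b-5p: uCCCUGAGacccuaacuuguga
miR-210-3p: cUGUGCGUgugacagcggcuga
miR-291b-5p: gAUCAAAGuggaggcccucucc

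**Figure D5:**
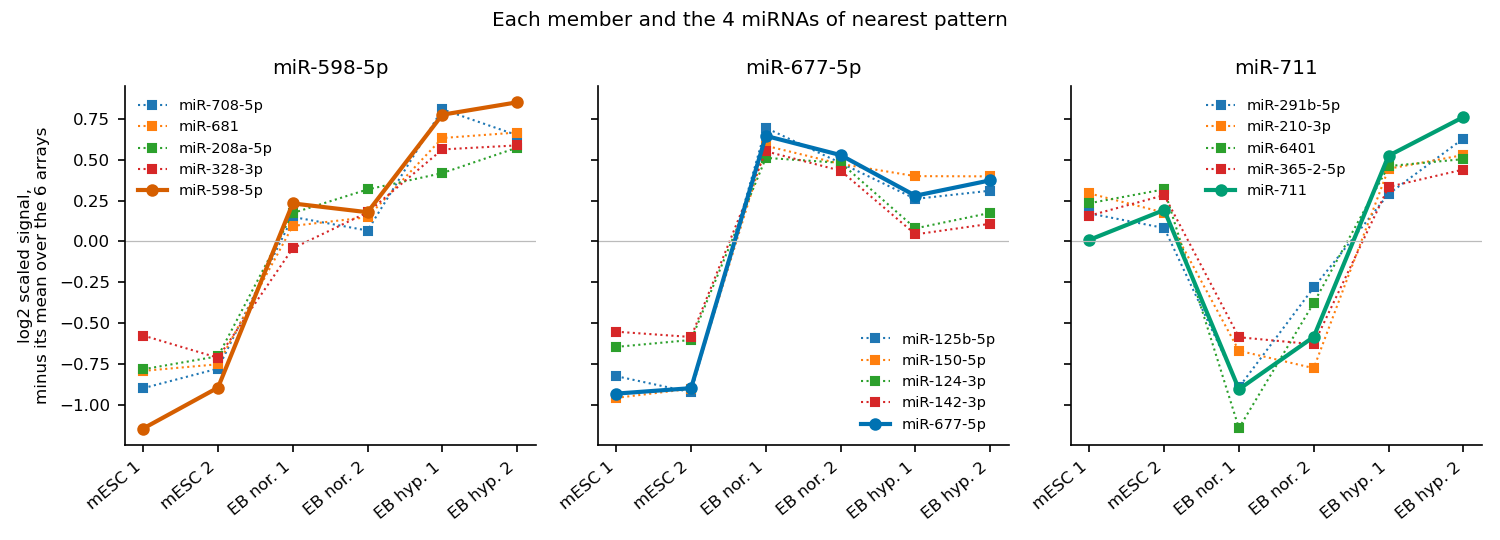
Log2 scaled signal minus its mean over the 6 arrays, on the vertical axis, for the arrays of the 3 groups in the order mESCs, normoxic EBs and hypoxic EBs. Thick lines are the members and dotted lines the 4 miRNAs of nearest pattern. Lines join arrays for reading only, and the replicates of a group have no order. The lines of miR-677-5p, miR-125b-5p and miR-150-5p lie almost on each other.

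Set side by side, the members did not share a course. The within-array difference of miR-598-5p from miR-677-5p was 0.11 and 0.32 in mESCs. It was -0.09 and -0.03 in EBs under normoxia and 0.81 and 0.80 in EBs under hypoxia. The hypoxic EB arrays thus lay above all others, miR-598-5p being higher and miR-677-5p lower with hypoxia. Their probes match 14 and 19 bases, in classes with median differences of 0.36 and -0.22 between normoxic and hypoxic EBs. A within-array difference does not remove such a class difference. With each class centred on its own median, both members' differences with hypoxia became smaller in size. The part of probe length in this contrast was not tested.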

How the data were processed

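Total RNA of 6 samples was hybridised to single-colour miRNA arrays. The labels describe Trizol extraction and a Cy3 labelling kit for cRNA, and the scanner software is not given in the sources used here. Per the file headers, each deposited file holds a total signal (intensity), its error and a detection flag per miRNA, with 0.1 for undetected miRNAs. The authors' deposited table repeats these intensities in 1253 shared rows and adds a ratio to a control value per miRNA. Its 6 columns of 2 other arrays were not used.

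Intensities were divided by the array's 75th percentile, taken over the 391 miRNAs that every array detected, multiplied by the mean percentile, floored at 2.91 units and put on the log2 scale, since the deposited intensities are linear. Tests covered the 484 miRNAs that both arrays of some group detected. The lmFit and eBayes functions of limma 3.58.1 (R 4.3.3) were run over all 6 arrays, leaving 3 residual degrees of freedom and a prior of 1.43, and p-values were adjusted by Benjamini-Hochberg in each comparison and read at 0.05. The fit was also run on simulated, normally distributed values with no floor or detection limit, so that run does not cover signals near the floor. Precision is limited by the 2 arrays per group. Figures were drawn with Python 3.11.15 and matplotlib 3.10.9. Same-numbered arrays were not treated as pairs, since the correlations of their deviations were -0.03, 0.15 and 0.11 and the labels give no pairing.

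The comparisons of miR-598-5p, miR-677-5p and miR-711 planned as tests use arrays of the choice, so their p-values are not given. The members and lists were chosen with earlier results of these data known. Sequences come from RefSeq (GRCm38.p6), and host genes from RefSeq's gene table by symbol. Named miRNAs were the members, the neighbours in order of rise, the 4 of nearest pattern and list members that a result turned on. Alternatives were other scalings, floors, filters and fits, leaving out each array and, added after the data were seen, centring by probe match length.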

Additional observations from a re-analysis of the deposited data

How the results depend on the processing

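Under all 21 alternatives miR-598-5p and miR-677-5p kept their direction in all 3 comparisons, and miR-711 in hypoxic against normoxic EBs. This is a description, since these members were picked on such differences and several alternatives cannot move one. Filters, the prior, the block, only the groups compared and leaving out an array of another group change only its error. The authors' ratio, the unscaled signal over a control value per miRNA, repeats the difference without scaling. Against mESCs, hypoxic EBs turned to -0.05 in miR-711 with quantile normalization and to -0.014 with centring by probe match length, and the sign of the small differences of miR-677-3p varied. Without scaling, and with the authors' ratio, the difference of miR-711 between normoxic EBs and mESCs was -0.11, that of miR-598-5p with hypoxia was 0.37, miR-677-3p turned to 0.28 in hypoxic EBs against mESCs, and 139 miRNAs were called with hypoxia instead of 281. With a floor 4 times as high, miR-711 was 0 between mESCs and normoxic EBs, since both groups lay at the floor, and 154 miRNAs were called there instead of 248. With no filter, the values stayed at -0.84 for miR-711, 0.61 for miR-598-5p and -0.26 for miR-677-5p, and 94, 20 and 231 miRNAs were called, against 363 in the last comparison, as more miRNAs at the floor were tested. The difference of miR-677-5p with hypoxia was -0.024 with hur scaling, and stayed -0.26 with a trended robust prior, with only the 2 groups compared and with the replicate number as a block, where the shared number is no evidence of pairing. The block did not change the calls of miR-677-3p. With centring by probe match length, chosen after the data were seen, it was -0.083 and miR-598-5p 0.27. Leaving out 1 array, where the lone array is assumed to vary like the others, gave -1.003 to -0.68 for miR-711, 0.57 to 0.64 for miR-598-5p and -0.32 to -0.20 for miR-677-5p, and 142 to 258 called miRNAs in normoxic EBs against mESCs and 160 to 264 with hypoxia. The count fell to 142 without mESC array 1, and to 160 and 173 without normoxic EB array 1 and hypoxic EB array 2. The cause of these changes was not tested where none is named. Depth is not defined for arrays, and signals of 1.85 to 6.11 times the lowest detected signal limit miR-711. In mESCs, signals of 2.26 to 2.94 times the lowest likewise limit the rises of miR-598-5p and miR-677-5p.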
